A study of Mus musculus with 4 samples.

Results

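Among 2285 retained cells of the ESC-derived library at D6, 72 cells carried UMIs of at least 2 of 6 Sertoli cell genes and are described here as Sertoli-like cells. They made up 3.15% of the D6 library (95% interval 2.47% to 3.95%), in a series of 10987 retained cells over 4 libraries. The 6 genes were Sox9, Amh, Dhh, Aard, Ptgds, and Hsd17b3, and a cell was also required to have no UMI of Pax8 and not to have 2 or more UMIs of both Star and Cyp11a1. The cells were compared with 1792 D6 cells that carried none of the 6 genes, called marker-free cells below, and with cells of the E11.5 and E12.5 gonads that met the same rule.

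The libraries came from XY gonads of ICR mice taken at 3 stages (E12.5, E11.5, and E10.5), and from aggregates of the XY ESC line N271S9C, labelled as C57BL/6J, and each condition was 1 library of droplet-based scRNA-seq. This line carried an Nr5a1 reporter for the surface protein hCD271, written Nr5a1-hCD27a in the labels, and Sox9-2A-CGFP, a green fluorescent protein joined to endogenous Sox9. It was a single knock-in line, so that line and treatment cannot be told apart, and the cells loaded at D6 had been enriched for hCD271 by magnetic sorting (MACS). ESCs were first turned into epiblast-like cells with FGF2 at 12 ng/mL and activin A at 20 ng/mL for 42 h. Aggregates then received CHIR99021, a Wnt activator, at 14 µM with BMP4 at 1 ng/mL and EGF at 50 ng/mL. From D2 they received retinoic acid at 3 µM, Sonic hedgehog at 30 ng/mL, and the MEK inhibitor PD0325901 at 1 µM. BMP4 and EGF were kept at the same concentrations in this step. From D4 the medium held BMP4 at 20 ng/mL, FGF9 at 2 ng/mL, and the Wnt inhibitor IWR1 at 20 µM in 15% KSR. The youngest gonads were dissected with dorsal mesenchyme, and the older ones without the mesonephros. The authors deposited UMI counts, that is, counts of transcript molecules per gene and cell, and no D6 barcode was shared with another library.

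Sertoli cells arise in the XY gonad from supporting cell precursors after Sry is switched on, and Sox9 then maintains their fate. They secrete AMH, which removes the Müllerian duct, and Desert hedgehog and inhibin, and they enclose germ cells in the testis cords. Granulosa cells, their counterpart in the ovary, depend on Wnt4, Rspo1, Foxl2, and Runx1 instead.

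The 2285 D6 cells held 11906360 UMIs, with a median of 4607 per cell. The Sertoli-like cells were deeper, with a median of 6498 UMIs (lowest 3355, highest 11633) and 2745 genes, against 4432 UMIs and 2016.5 genes in marker-free cells. Together they held 476427 UMIs, against 8982877 in the marker-free cells. Mitochondrial UMIs were 4.0% in the median Sertoli-like cell and 3.44% in the median marker-free cell. A cell with more UMIs shows a marker more often, and depth therefore helped to choose the cells. When each cell was thinned to 2000 UMIs, 46 of 2269 cells met the rule (2.03%, 1.49% to 2.69%). Because each condition was 1 library, no test between conditions was possible. The intervals given below are exact Poisson or binomial ones at 95% and cover counting error only.

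The cells were chosen by the UMIs of the 6 marker genes, whose values are given as a description. Amh and Ptgds, the latter encoding a prostaglandin D synthase, were each detected in 57 of the 72 Sertoli-like cells (79.2%). Sox9 was detected in 54 cells (75%) and Aard in 45 (62.5%). Dhh, which encodes the Desert hedgehog ligand, was found in 23 cells (31.9%), and Hsd17b3, which encodes a steroid dehydrogenase that forms testosterone, in 11 (15.3%). In CPM, the counts of a gene scaled to a fixed total of UMIs summed over the cells, Amh reached 682 (610.0 to 761), with up to 26 UMIs in 1 cell. Ptgds reached 514 CPM (452 to 583) and Aard 418 (362 to 480.0). The level of Sox9 was 248 CPM (205 to 297), of Dhh 84.0 (60.0 to 114), and of Hsd17b3 33.6 (19.2 to 54.5). For comparison, in 230 D6 cells with at least 2 UMIs of Pdgfra, a gene of interstitial cells, with a median of 4781 UMIs and 4 of the Sertoli-like cells among them, Amh was detected in 1.30%, Ptgds in 1.74%, Aard in 2.17%, Dhh in 0.870%, and Hsd17b3 in 0.435%. Sox9 was detected in 13.0% of these Pdgfra cells, close to its share of 12.8% in all D6 cells, so that a UMI of Sox9 alone did not set cells apart. In 33 D6 cells with UMIs of at least 3 endothelial genes, with a median of 7550 UMIs, Amh was detected in 2 cells (6.06%). Sox9 and Aard were each detected in 1 of these 33 cells, and Dhh, Ptgds, and Hsd17b3 in none.

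The cells differed in how many markers they carried. There were 18 cells with 2 markers, 22 with 3, 19 with 4, 9 with 5, and 4 with all 6. The commonest combination, of Sox9, Amh, Aard, and Ptgds, was found in 11 cells, followed by Sox9, Amh, and Ptgds in 10 cells. In all, 28 combinations were seen, 15 of them in a single cell. Of the 97 D6 cells with at least 2 markers, 13 were left out for Pax8 and 12 for Star and Cyp11a1. The cells left out also had effector gene UMIs (genes listed below), at 1577 CPM in those with Pax8 and 1972 CPM in those with Star and Cyp11a1.

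Amh was mostly detected together with Sox9. Over all D6 cells, Sox9 was found in 53 of 82 cells with Amh (64.6%, 53.3% to 74.9%) and in 10.8% of cells without Amh. In the other direction, Amh was found in 18.2% of the 292 cells with Sox9 (13.9% to 23.1%) and in 1.46% of the cells without it. In the E12.5 gonad, 86.1% of the 641 cells with Amh had Sox9 and 61.0% of cells with Sox9 had Amh. At E11.5, Amh was found in 26.2% of cells with Sox9. These shares use the genes of the rule and are a description only.

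In the gonads, the same rule was met by 670 of 2764 cells at E12.5 (24.2%), by 525 of 2101 at E11.5 (25.0%), and by 99 of 3837 at E10.5 (2.58%). After thinning, the shares were 2.03% at D6, 20.2% at E12.5, 18.0% at E11.5, and 0.157% at E10.5. At E10.5, 92 of the 99 cells carried Sox9 with Aard and none carried 3 or more markers, whereas at D6 54 of the 72 cells did. Cells with at least 4 markers made up 44.4% of the Sertoli-like cells at D6 and 83.4% of the cells that met the rule at E12.5. The E12.5 cells were deeper, with a median of 10840.5 UMIs, so that these unthinned numbers of markers also carry a difference in depth. These shares come from the markers of the rule in 1 library each and are a description without a test. The D6 share also depends on the MACS enrichment, which has no counterpart in the gonads.

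**Figure D1:**
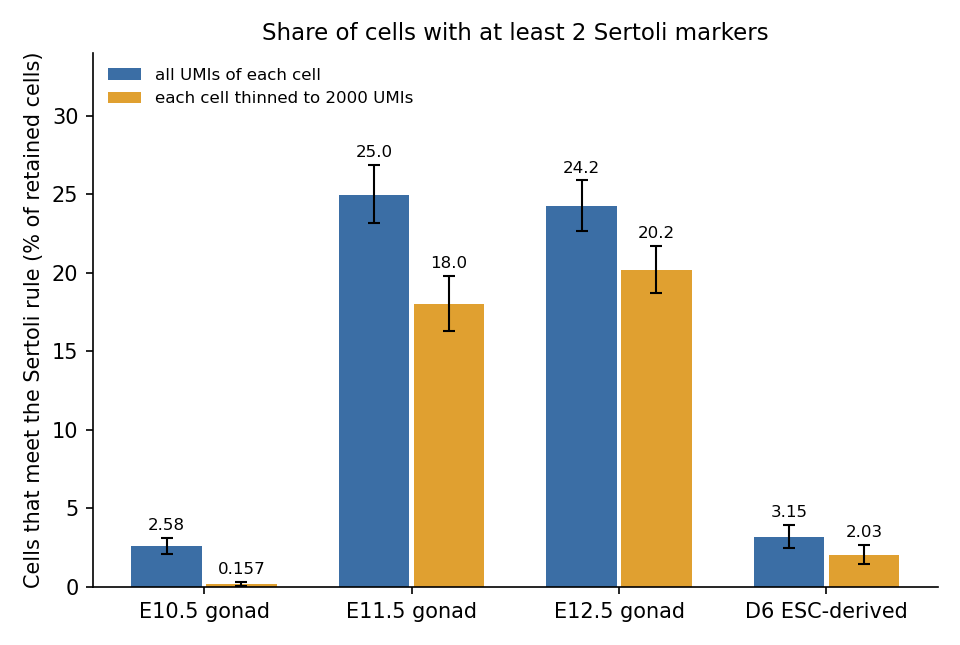
Percentage of retained cells that met the rule of at least 2 Sertoli markers in each library, as deposited and after thinning each cell to 2000 UMIs, with exact binomial 95% intervals as error bars. The D6 bar falls from 3.15% to 2.03%, while the E10.5 bar falls from 2.58% to 0.157%.

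To see what the cells shared beyond the genes that chose them, 25 other genes known from fetal Sertoli cells were followed, called Sertoli effector genes here. Their summed level was 2827 CPM (2678 to 2982) in the D6 Sertoli-like cells, 593 CPM (561 to 625) in D6 cells with exactly 1 marker, and 302 CPM (291 to 314) in marker-free D6 cells. Within the Sertoli-like cells it was 1753 CPM in those with 2 markers, 2429 in those with 3, and 3641 in those with 4 or more, so that groups with more markers had a higher summed level. As a group, the cells just outside the limit, with 1 marker, were nearer to marker-free cells than to those just inside it, with 2. Among the cells with 1 marker, the effector level also differed by which marker it was. The 224 D6 cells with Sox9 alone had 303 CPM of effector genes (273 to 335), the level of marker-free cells, and 3056 CPM of interstitial genes. By contrast, the 98 cells with Ptgds alone had 1044 CPM, the 14 with Amh alone 988 CPM, and the 7 with Dhh alone 1812 CPM (1401 to 2305). The last sum was near that of cells with 2 markers but came mostly from Clu, Aldh1a1, Inha, and Kitl (17, 16, 13, and 11 UMIs). Cst9 and Col9a3 had 0 UMIs with Dhh alone. Cyp11a1 stood at 467 CPM in these cells, against 81.9 CPM in the Sertoli-like cells with 2 markers. The cells with Ptgds alone also had 2013 CPM of steroidogenic genes, where the Sertoli-like cells had 418. The rule removed cells with Star and Cyp11a1 from the Sertoli-like cells but not from the cells with 1 marker. Differences in Cyp11a1 and steroidogenic genes between them were therefore partly set by the rule.

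At equal depth the order of Sertoli-like cells, cells with 1 marker, and marker-free cells held per cell. Among D6 cells thinned to 2000 UMIs, the median Sertoli-like cell had 4.5 effector UMIs (lowest 0, highest 25), the median cell with 1 marker had 1, and the median marker-free cell had 0. Within the Sertoli-like cells, the median was 3 effector UMIs with 2 markers, 5 with 3, and again 5 with 4 or more. The rise in summed level from 3 to 4 or more markers was thus not seen in this median. An effector UMI was found in 69 of the 72 Sertoli-like cells (95.8%) and in 569 of 1779 marker-free cells (32.0%). The groups overlapped. The median of the Sertoli-like cells was reached by 24 of the 1779 marker-free cells (1.35%), and by 26 of 393 cells with 1 marker (6.62%). Among the latter it was reached by 3 of 223 cells with Sox9 alone (1.35%), 2 of 49 with Aard alone (4.08%), 14 of 98 with Ptgds alone (14.3%), 4 of 14 with Amh alone (28.6%), and 2 of 7 with Dhh alone (28.6%). Of the cells left out of the rule, 5 of 12 with Star and Cyp11a1 and 2 of 13 with Pax8 reached it.

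**Figure D2:**
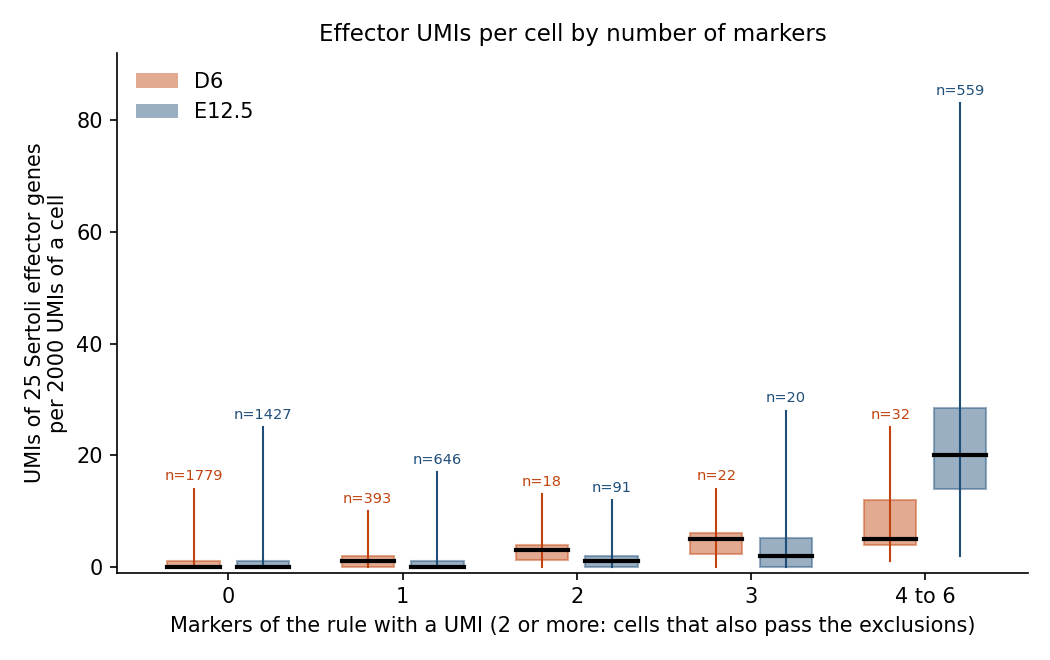
UMIs of the 25 Sertoli effector genes per cell, after thinning to 2000 UMIs, plotted against the number of rule markers with a UMI, for D6 and E12.5. The median at D6 is 3 UMIs with 2 markers and 5 with 3 and with 4 or more, and D6 cells with 4 to 6 markers reach at most 25 UMIs where E12.5 cells reach 83.

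Ratios to marker-free D6 cells were computed for 10602 genes with at least 50 UMIs over both groups, without the genes of the rule. Of these, 869 (8.20%) were at least 2-fold higher and 1409 (13.3%) at least 2-fold lower in the Sertoli-like cells, and the median log2 ratio was -0.06. Of the 25 effector genes, 12 had 50 UMIs in the marker-free cells alone, and 11 of these were at least 2-fold higher, with a median log2 ratio of 2.81. Over both groups, 19 had 50 UMIs, of which 17 were at least 2-fold higher, with a median of 3.45. Among these 19, Tesc, Col9a3, Mro, Gstm6, Cst9, and Mmd2 reached the minimum only with the UMIs of the Sertoli-like cells, in which they are high, and so had to differ. Ren1, which encodes renin, was lower, on 1 UMI, and Cldn11, a tight junction claudin, stayed within 2-fold, on 4 UMIs.

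Some of these genes encode protease inhibitors and matrix proteins. Cst9, a cystatin gene at chr2:148835147-148838738 (GRCm38, plus strand), was at 403 CPM (348 to 464) in Sertoli-like cells and 3.90 CPM in marker-free cells, a 103-fold difference (71.9 to 153). It was detected in 36 of the 72 cells. Cst8, its neighbour at chr2:148798785-148805595, was 10.9-fold higher (7.86 to 15.0), at 132 CPM. The uncharacterized gene 8030411F24Rik lies beside them at chr2:148782009-148785937 and had 65 UMIs in the Sertoli-like cells and 5 in the far larger marker-free group. Cystatin genes are related in sequence, and how reads were divided between such copies was not tested. Serpine2, a secreted serine protease inhibitor, was 5.50-fold higher (4.21 to 7.11), and Spint2, a membrane-bound one, 26.4-fold (20.8 to 33.6). Col9a3, a chain of type IX collagen at chr2:180597790-180622189, was at 168 CPM against 1.45, a 116-fold difference (64.1 to 227). Its partner chain Col9a2 was 31.4-fold higher (21.1 to 47.2), on under 50 UMIs in marker-free cells.

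Several effector genes encode ligands and hormones that Sertoli cells send to other cells. Inha, the inhibin alpha subunit gene at chr1:75507077-75510366, was at 222 CPM (182 to 269) in Sertoli-like cells and 40.2 CPM in marker-free cells, 5.54-fold higher (4.42 to 6.89). Inhbb, which encodes the beta B subunit, was 12.2-fold higher (8.99 to 16.4), at 157 CPM. For Fgf9, whose product maintains Sox9 in the XY gonad, the level was 122 CPM against 7.24, a 16.8-fold difference (11.6 to 24.3). Fgf9 at D6 was also a protein added to the medium, which does not enter these RNA counts. Kitl, the ligand of the KIT receptor on germ cells, was 2.96-fold higher (2.40 to 3.61), at 237 CPM. Clu, a secreted chaperone, was 7.73-fold higher (6.22 to 9.55). Gdnf, a growth factor for spermatogonia, had only 6 UMIs in the Sertoli-like cells and 2 in the marker-free cells.

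Genes of retinoid metabolism did not share a direction. Cyp26b1, which degrades retinoic acid and shields fetal germ cells from it, was 8.86-fold higher (6.46 to 12.0), and Aldh1a1, a retinaldehyde dehydrogenase, 6.38-fold higher (4.74 to 8.50). Crabp2, which carries retinoic acid inside cells, had 3 UMIs in the Sertoli-like cells and Rarb, a direct target of retinoic acid, had 1. Of 11 genes for handling retinoids with 50 UMIs, 2 were at least 2-fold higher and 5 lower, where 8.20% and 13.3% of all genes were.

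Among the other effector genes, Tesc, which encodes a calcium-binding protein, was at 124 CPM against 0.557, from 59 UMIs against 5. Nedd9, an adhesion scaffold, was 16.7-fold higher (11.7 to 23.8) and Gstm6, a glutathione transferase, 39.5-fold (25.4 to 62.8). Mro, Mmd2, and Defb19, a beta-defensin gene, were between 5.64-fold and 18.9-fold higher. The 6 effector genes under 50 UMIs had few UMIs in Sertoli-like cells: Cbln4 had 19, Etd 8, Gdnf 6, Vnn1 4, Erbb3 3, and Fshr, the FSH receptor, none in either group.

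**Figure D3:**
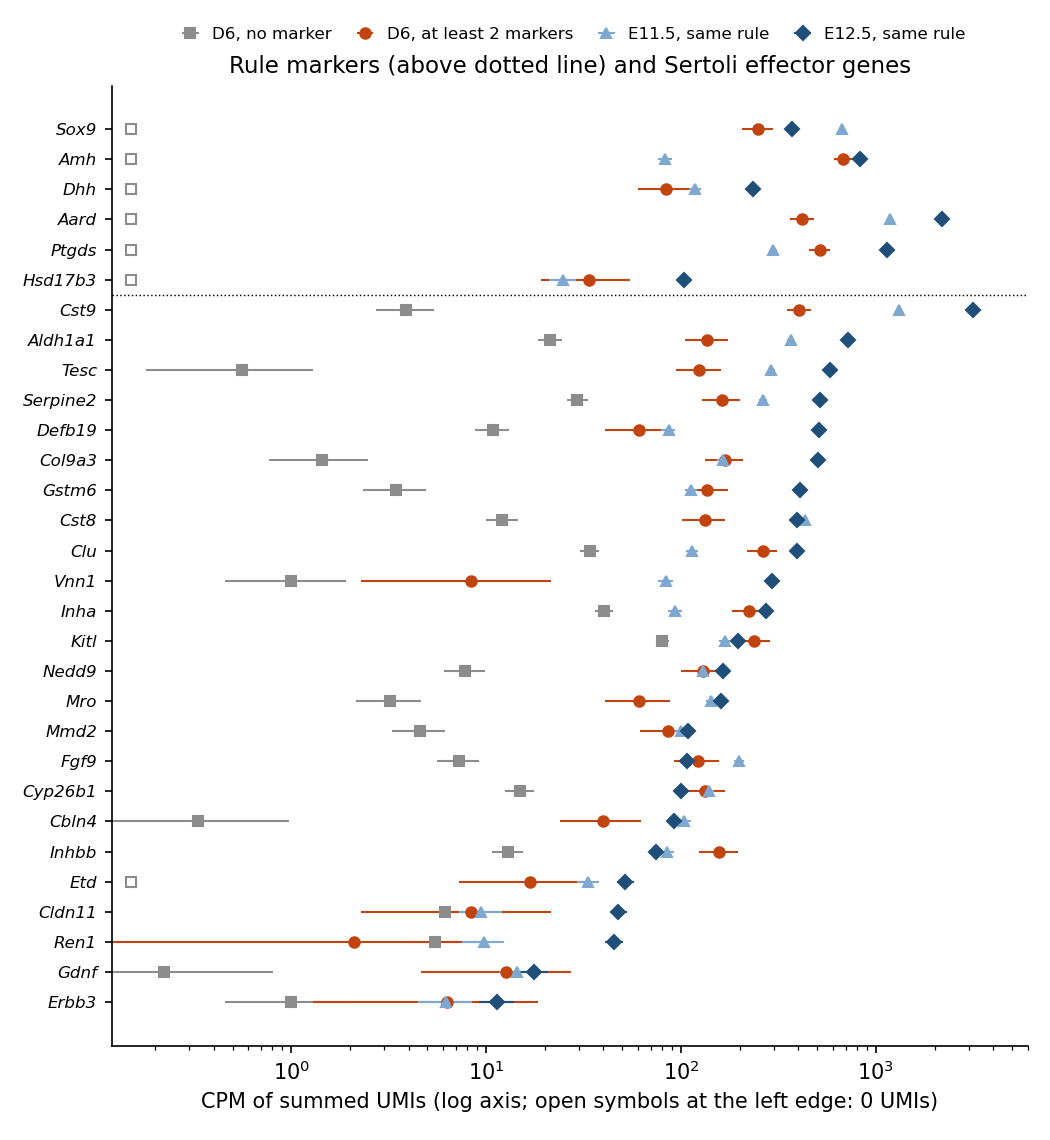
CPM of the 6 rule markers and of the Sertoli effector genes on a log axis in D6 Sertoli-like cells, D6 marker-free cells, and E11.5 and E12.5 cells that met the same rule, with exact Poisson 95% intervals. Cst9 stands at 403 CPM in D6 Sertoli-like cells, between 3.90 in marker-free cells and 3145 at E12.5.

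The promoters of Inha and Cst8 are shown because both genes were higher in the Sertoli-like cells together with Nr5a1, and each holds the NR5A half-site AGGTCA, the core of the element that NR5A1 binds. Each sequence covers 250 bases upstream of the start site in RefSeq on GRCm38.p6, plus strand, 5′ to 3′, with the half-site in capitals. They lie at chr1:75507359-75507608 and chr2:148798589-148798838, and the RefSeq starts of Inha and Cst8 lie inside the wider gene spans given above.
Inha: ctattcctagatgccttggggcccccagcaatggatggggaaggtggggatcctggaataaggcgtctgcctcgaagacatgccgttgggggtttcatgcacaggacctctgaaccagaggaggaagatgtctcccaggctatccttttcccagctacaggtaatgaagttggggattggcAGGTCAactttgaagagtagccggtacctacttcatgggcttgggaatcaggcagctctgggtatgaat
Cst8: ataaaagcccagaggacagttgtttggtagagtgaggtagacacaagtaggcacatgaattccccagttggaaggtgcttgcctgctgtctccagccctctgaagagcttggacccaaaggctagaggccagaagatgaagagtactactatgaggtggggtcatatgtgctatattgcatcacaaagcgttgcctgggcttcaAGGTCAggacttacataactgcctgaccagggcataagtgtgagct
Searched on both strands as AGGTCA or TGACCT, which is 1 motif on opposite strands, the half-site was found in 3 of 23 promoters of effector genes (13.0%), those of Cst8, Gdnf, and Inha, and in 4607 of all 32851 promoters (14.0%). The core of the SOX motif, ACAATG or CATTGT, was found in none of the 23 and in 10.7% of all promoters. The windows held promoters of 19 of the 25 effector genes. Holding the letters is no sign of binding, and the effector promoters did not hold the half-site at a higher share than promoters at large.

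Transcription factors of the early gonad were higher in part. Nr5a1, the orphan nuclear receptor behind the reporter, was at 399 CPM in Sertoli-like cells and 122 CPM in marker-free cells, 3.27-fold higher (2.78 to 3.81), and was detected in 65 of 72 cells. Gata4 was 4.58-fold higher (3.83 to 5.46) and Wt1 2.59-fold (2.23 to 2.99), both factors that act upstream of Sry in the gonad. Emx2 was 2.15-fold (1.60 to 2.85) and Nr0b1, which encodes DAX1, 4.47-fold higher (2.71 to 7.10). Lhx9, a factor of the coelomic epithelium, was 2.40-fold lower (1.45 to 4.31). It stood at 98.3 CPM in Sertoli-like cells with 2 markers, 23.1 with 3, and 0 with 4 or more, against 75.6 CPM in marker-free cells. In all, 5 of the 9 factors with 50 UMIs were at least 2-fold higher, where 8.20% of all genes were, and 1 was lower, near the 13.3% of all genes.

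The factors Sox10, Dmrt1, and Sox8 were sparse. Sox10 had 10 UMIs in the Sertoli-like cells and 1 in the marker-free cells, Dmrt1 8 and 5, and Sox8 3 and 2, from groups that differ in total UMIs by far. Sry was detected in 0 of 72 Sertoli-like cells. With 3 counts as the limit, this allows a share of up to 4.17% of cells with a Sry UMI at this depth, which is no limit on cells that express the gene. Sry was detected in 0.952% of E11.5 cells that met the rule and in none at E12.5. Y-linked Ddx3y, Eif2s3y, and Uty stood at 73.5, 71.4, and 60.9 CPM in the Sertoli-like cells.

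No gene of the granulosa pathway with 50 UMIs was at least 2-fold lower. Runx1 was at 132 CPM (102 to 169) in Sertoli-like cells and 16.8 CPM in marker-free cells, 7.87-fold higher (5.77 to 10.6). Rspo1, which encodes a secreted enhancer of Wnt signaling, was 2.89-fold higher (2.05 to 3.98). Wnt4 stood at 285 CPM against 379.6 CPM, 1.33-fold lower (1.12 to 1.59), and was detected in 33 of the 57 Sertoli-like cells with Amh. Foxl2, the granulosa cell determinant, was detected in 7 of the 72 cells (9.72%, 4.0% to 19.0%), in 6 of them beside Amh, and in 1.12% of marker-free cells. At 2000 UMIs per cell these shares were 2.78% and 0.393%. Lgr5, a receptor for R-spondins that also marks early supporting cells, had 27 UMIs in the Sertoli-like cells and 6 in marker-free cells. Only Rspo1, Wnt4, and Runx1 of the 10 granulosa genes had 50 UMIs. Of these 3, 2 were at least 2-fold higher and none lower, where 8.20% and 13.3% of all genes were. Runx1 and Lgr5, but not Rspo1, were also at least 2-fold higher in the gonad cells that met the rule than in their marker-free cells. At E12.5, 3 of 6 genes of the list were higher, and at E11.5 2 of 6 were higher and 1 lower. Of all genes, 10.9% and 9.67% were higher there.

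Interstitial genes were lower. All 12 listed genes were at least 2-fold lower in the Sertoli-like cells, where 13.3% of all genes were, with a median log2 ratio of -2.32. After thinning, 11 of the 12 were at least 2-fold lower and 1 stayed within 2-fold, with 5 ratios taken as bounds. The summed level of the list at D6 was 569 CPM (503 to 641) against 3359 CPM in marker-free cells. Nr2f2, a nuclear receptor of interstitial progenitors and the most abundant gene of the list, was 5.42-fold lower (4.45 to 6.66), at 212 CPM against 1149. Col1a1, a fibrillar collagen chain, was 12.9-fold lower (9.04 to 19.2), and Tcf21, a mesenchymal transcription factor, 5.15-fold (3.36 to 8.35). The remainder was uneven, since interstitial genes summed to 1098 CPM in the Sertoli-like cells with 2 markers and to 387 CPM in those with 4 or more. Of the 46 D6 cells scored as likely doublets, 4 were among the Sertoli-like cells, and without doublets the median log2 ratio of the interstitial list was -3.15.

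Steroidogenic genes outside the rule summed to 418 CPM in Sertoli-like cells and 416 CPM in marker-free D6 cells. The rule had removed 12 cells with Star and Cyp11a1 from the former and none from the latter, so that these levels were partly set by the rule. The adrenal genes Cyp11b1, Cyp21a1, and Mc2r, which encode the last enzymes of corticoid synthesis and the ACTH receptor, had 7 UMIs each in the Sertoli-like cells. Each of these genes stayed within 2-fold of its level in marker-free D6 cells, so that they did not set the Sertoli-like cells apart. At E11.5 and E12.5, Cyp11b1 and Cyp21a1 had no UMI in cells that met the rule. Of Star and Cyp11a1, which are limited by the rule, 96.6 and 75.6 CPM remained.

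Markers of other cell types had few UMIs in the Sertoli-like cells, which held far fewer UMIs in all. Of 10 endothelial genes, 6 had no UMI, among them Cdh5, Cldn5, Emcn, and Tek, and their sum at D6 was 56.7 CPM against 205 CPM in marker-free cells, with Ramp2 as the most abundant. Of 8 endothelial genes with 50 UMIs, 3 were at least 2-fold lower, where 13.3% of all genes were. The other 5 could not be placed past 2-fold, and 4 of the 8 were at 0 in Sertoli-like cells. Of 10 blood cell genes 9 were at 0, as were 9 in marker-free cells. Of 12 neural genes 7 were at 0 in the Sertoli-like cells, and their sum was 109 CPM against 470 CPM in marker-free cells, with Sox11 as the most abundant. Chondrogenic genes, in contrast, were at 405 CPM in D6 Sertoli-like cells against 103 CPM in marker-free cells. This sum came mostly from Col9a2, Sox5, and Col2a1. Acan, which encodes the main proteoglycan of cartilage, had 6 UMIs in 6 of the 72 Sertoli-like cells (8.33%, 3.12% to 17.3%) and was detected in 1.06% of marker-free cells. Of the 12 listed genes 5 were at 0, among them the cartilage genes Matn1 and Cnmd and the sclerotome factors Pax1 and Pax9. The cells that met the rule at E12.5 had 314 CPM of the same list, and there too Col9a2 was the most abundant gene.

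**Figure D4:**
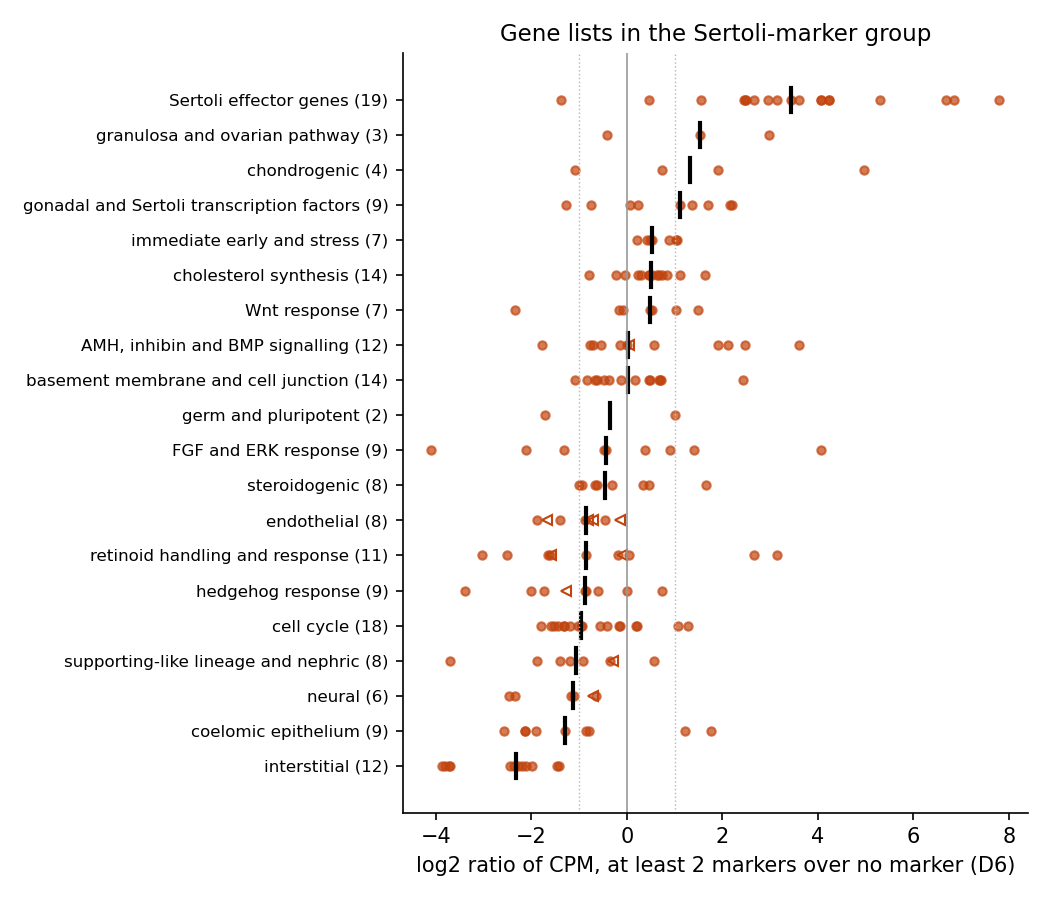
log2 ratio of CPM in D6 Sertoli-like cells to marker-free D6 cells for each gene with at least 50 UMIs over both groups, by list. Points of the Sertoli effector list lie around a median of 3.45, or 2.81 for those with 50 UMIs in the marker-free cells alone. All 12 interstitial genes lie below 0, around -2.32.

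The cells differed in cell cycle genes. Of 18 such genes, 8 were at least 2-fold lower in the Sertoli-like cells, where 13.3% of all genes were, and 2 higher, near the 8.20% of all genes. With TMM these numbers were 10 and 1. Mki67 was 2.48-fold lower (1.82 to 3.47) and Top2a, the topoisomerase of dividing cells, 2.27-fold lower (1.89 to 2.74). The CDK inhibitor Cdkn1b was 2.09-fold higher (1.53 to 2.80), which fell below 2-fold with TMM. Ccnd2, a D-type cyclin of the G1 phase, was 2.45-fold higher (2.24 to 2.67), at 1171 CPM against 479. Of 9 hedgehog response genes, 4 were at least 2-fold lower, 5 stayed within 2-fold, and none was higher. Gli1, among the lower ones, had 1 UMI in the Sertoli-like cells, against 21.8 CPM in marker-free cells, while Ptch1, within 2-fold, was at 56.7 CPM against 85.5. Of genes that answer FGF, Etv5 was 2.64-fold higher (1.59 to 4.18), while Spry1, a feedback inhibitor, had 1 UMI. Amhr2, the AMH receptor, was 3.76-fold higher (3.05 to 4.60), and the laminin receptor chain Itga6 5.41-fold (4.38 to 6.65).

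By ratio alone, the 15 leading genes with at least 100 CPM in the Sertoli-like cells were 8030411F24Rik, Tesc, Mt3, Col9a3, Cst9, Spp1, Rhox8, Gstm6, Gm2044, Col9a2, Bhlhe41, Spint2, Gpr37, Tmem114, and Olfr889. Mt3, a metallothionein, was at 193 CPM against 0.891, Spp1, the secreted protein osteopontin, at 174 against 3.23, and the X-linked homeobox gene Rhox8 at 141 against 3.12. The 15 were picked by this ratio. Most of them reached 50 UMIs only with those of the Sertoli-like cells, in which they are high, and so had to differ. Among these were 8030411F24Rik, Tesc, Mt3, Col9a3, Cst9, Spp1, Rhox8, Gstm6, and Col9a2. As a description, all 15 were also at least 2-fold higher in cells that met the rule than in marker-free cells in vivo. This held in the E12.5 gonad, where 10.9% of all genes were, and in the E11.5 gonad, where 9.67% were. The 15 genes with the largest ratios in favor of marker-free cells were Mfap4, Acta2, Col1a2, Asb4, Dcn, Dnm3os, Col1a1, Sfrp2, Cdh11, Mgp, Ecm1, Ptn, Tagln, Itga8, and Col6a3. Acta2 encodes the actin of smooth muscle and Dcn a matrix proteoglycan. In the E11.5 and E12.5 gonads, 14 of the 15 were at least 2-fold lower too, where 11.4% and 12.7% of all genes were, the exceptions being Tagln at E11.5 and Ecm1 at E12.5. Across the 10187 genes with 50 UMIs in both contrasts, Pearson's r between the log2 ratios at D6 and at E12.5 was 0.65 and Spearman's rho 0.53. Over 10031 genes with E11.5 they were 0.68 and 0.58. Over the 2054 genes with at least 100 CPM in a D6 group they were 0.86 and 0.72 for E12.5, and 0.88 and 0.74 for E11.5. Genes are not independent replicates, and all 3 contrasts were formed by the same rule.

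The D6 Sertoli-like cells were then set beside the 670 E12.5 cells that met the rule, which held 8067981 UMIs. Kit version, strain, culture, and sorting differed along with origin and cannot be told apart from it. Of 9365 genes, 2066 (22.1%) were at least 2-fold higher at D6 and 892 (9.52%) at least 2-fold lower. With TMM scaling, which shifts each log2 ratio by -0.51, 965 were higher and 2067 lower, so that the balance of directions changed with the scaling. Ratios below are by total UMIs.

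The effector genes were mostly lower at D6 than at E12.5. Of 24 with 50 UMIs, 14 were at least 2-fold lower and 1, Inhbb, was higher (16 and 0 with TMM), with a median log2 ratio of -1.49 where that of all genes was 0.22. Among the 14, Vnn1, Etd, Cbln4, Ren1, Cldn11, Mro, and Defb19 had under 50 UMIs at D6. They reached the minimum only with the UMIs of the E12.5 cells, in which they are high. Cst9 was 7.80-fold lower (6.77 to 9.04), at 403 against 3145 CPM, and Tesc 4.68-fold lower (3.62 to 6.16). Vnn1, which encodes pantetheinase, was at 8.40 against 294 CPM, and Defb19 at 60.9 against 508. Aldh1a1 was 5.30-fold lower (4.15 to 6.87) and Col9a3 3.00-fold (2.41 to 3.80). Of the secreted factors, Inhbb was 2.12-fold higher at D6 (1.65 to 2.70), a log2 ratio of 1.09 that was 0.58 with TMM, and Inha stood at 222 against 274 CPM. Fgf9 was at 122 against 108 CPM and Kitl at 237 against 197, differences whose intervals included no difference and whose direction turned with TMM. The summed effector level was 8923 CPM in the E12.5 cells and 2827 CPM at D6. In E12.5 cells with 2, 3, and 4 or more markers it was 637, 1696, and 10910.1 CPM, beside 1753, 2429, and 3641 CPM at D6. Marker numbers were counted at unequal depth here, with a median of 14364 UMIs in the 91 E12.5 cells with 2 markers and 6538 in the 18 at D6. In 118 E12.5 cells with UMIs of at least 3 endothelial genes, with a median of 17366 UMIs, Aard was detected in 20 cells, Sox9 in 13, Ptgds in 8, and Amh in 6. The part of this background in the E12.5 cells with 2 markers was not tested.

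Of 12 gonadal transcription factors, 5 were at least 2-fold above their E12.5 level at D6 and 2 below. Of all genes, 22.1% were above and 9.52% below. With TMM, 4 factors were above and 3 below, where 10.3% and 22.1% of all genes were. The 2 below by total UMIs, Sox8 and Dmrt1, reached the minimum of UMIs only with those of the E12.5 cells. Nr5a1 was 3.34-fold (2.84 to 3.90), Emx2 3.27-fold (2.40 to 4.37), Gata6 3.38-fold (2.67 to 4.24), and the GATA cofactor gene Zfpm2 4.84-fold higher (3.48 to 6.62). The MACS enrichment at D6 acted on the Nr5a1 reporter, with no such step in the gonads, so that its part in the level of Nr5a1 cannot be told apart. At 2000 UMIs per cell, Nr5a1 was detected in 55.6% of the D6 Sertoli-like cells, 27.3% at E11.5, and 21.0% at E12.5. Dmrt1, needed to keep the Sertoli fate, was 2.51-fold lower (1.26 to 5.86), and Sox8 had 3 UMIs, against 35.9 CPM at E12.5.

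Of 10 granulosa genes, 4 had 50 UMIs, of which 3 were at least 2-fold higher at D6, where 22.1% of all genes were. Lgr5 stayed within 2-fold. These counts were the same with TMM, where 10.3% of all genes were higher. Wnt4 was at 285 CPM at D6 and 12.8 CPM at E12.5, 22.4-fold higher (17.2 to 29.2), Runx1 6.17-fold higher (4.55 to 8.27), and Rspo1 5.21-fold higher (3.63 to 7.35). Foxl2 was at 23.1 CPM against 0.372, from 11 UMIs against 3. Wnt4, Runx1, and Rspo1 held the same direction with TMM. Of 5 Wnt response genes with 50 UMIs, 1 (Nkd1) was at least 2-fold higher, near the 22.1% of all genes, and none with TMM. The Wnt targets Axin2 and Lef1 were under that minimum, at 23.1 and 18.9 CPM at D6, on 11 and 9 UMIs, and at 2.85 and 3.97 CPM at E12.5. Of 11 interstitial genes, 4 were at least 2-fold above the E12.5 level and 1 below, where 22.1% of all genes were above, and with TMM 3 were above and 3 below. The median log2 ratio of the list was 0.65, or 0.14 with TMM. Nr2f2 was 3.73-fold higher (2.98 to 4.64) and Col1a1 5.84-fold (3.72 to 8.93).

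Of 18 cell cycle genes, 6 were at least 2-fold below their E12.5 level at D6 and 3 above, with TMM too. Of all genes, 9.52% were below and 22.1% above, or 22.1% and 10.3% with TMM. Against E11.5, none of the 18 was below and 5 were above, Mki67 and Top2a among them, a share near the 24.2% of all genes, or 4 and 4 with TMM. Against E12.5, Ube2c, a ubiquitin-conjugating enzyme of mitosis, was 3.96-fold lower (2.89 to 5.58), and Birc5, the survivin gene, 3.34-fold (2.25 to 5.17). In that comparison with E12.5, as in the values that follow, the CDK inhibitor gene Cdkn1b was 10.1-fold higher (6.96 to 14.5) and Ccnd2 4.61-fold (4.19 to 5.06). Of 14 genes of cholesterol synthesis, 5 were at least 2-fold higher and none lower, where 22.1% of all genes were higher, and with TMM 3 were. The median log2 ratio of the list was 0.54, or 0.03 with TMM. Hmgcs1, an early enzyme of the pathway, was 2.60-fold higher (2.09 to 3.20), a log2 ratio that fell below 2-fold with TMM, at 0.87. Lama1, a laminin chain of the basement membrane, was 5.27-fold higher (2.67 to 9.77), and Itga6 3.20-fold (2.61 to 3.90).

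**Figure D5:**
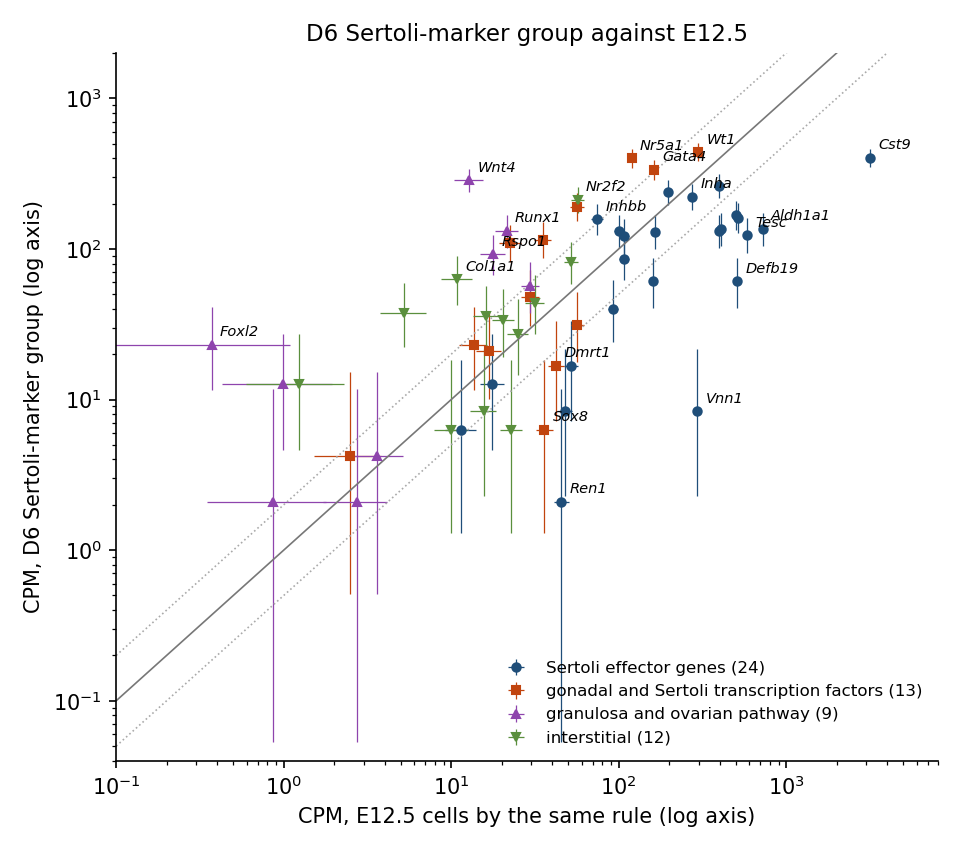
CPM of listed genes in the D6 Sertoli-like cells (vertical, log axis) against E12.5 cells that met the same rule (horizontal, log axis), with exact Poisson 95% intervals, colors by list, a solid line of equal levels, and dotted lines at 2-fold differences. Most effector genes lie below the line of equal levels, as Cst9 at 403 and 3145 CPM, while Wnt4 at 285 and 12.8 CPM lies above it.

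The 10 genes with the largest ratios in favor of D6 over E12.5 included the mitochondrial genes mt-Atp8, mt-Nd6, and mt-Nd4l and the ribosomal RNA-related genes AY036118 and Gm42418. The part of the kit and of read counting in these ratios was not tested. Zim1, an imprinted zinc finger gene, was at 162 CPM against 3.97, Nr2f1, a nuclear receptor, at 105 against 3.10, and Igfbp5, an IGF-binding protein gene, at 759.8 against 25.4. Their levels in marker-free D6 cells were 148, 408, and 1239.8 CPM, and in marker-free E12.5 cells 10.2, 8.37, and 96.6 CPM. At the other end, the 10 genes included the effector gene Vnn1, given above. Serpina3a, a protease inhibitor gene, was at 2.10 against 249 CPM and Col14a1 at 4.20 against 141. For Tinagl1, which encodes a matrix protein, the values were 44.1 and 439.9. Dppa5a, a germ cell gene at 1085 CPM in marker-free E12.5 cells, was at 106 CPM in the E12.5 cells that met the rule and at 2.10 at D6.

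Against the 525 cells of the E11.5 gonad that met the rule, the D6 Sertoli-like cells were compared in the same way. Of 8821 genes, 2132 (24.2%) were at least 2-fold higher at D6 and 607 (6.88%) lower, or 779 and 1741 with TMM, whose shift was -0.58. Of 23 effector genes, 2 were at least 2-fold higher and 8 lower, with a median log2 ratio of -0.50 where that of all genes was 0.34. With TMM none was higher and 12 were lower, with a median of -1.09. Among the 8 lower by total UMIs, Mro, Vnn1, Cbln4, and Ren1 were under the minimum of UMIs at D6. They reached it only with the UMIs of the E11.5 cells, in which they are high. Cst9 was 3.27-fold lower (2.83 to 3.79) and Cst8 3.28-fold lower (2.56 to 4.28). By total UMIs, Inha was 2.38-fold higher at D6 (1.92 to 2.93) and Clu 2.31-fold (1.90 to 2.80), whereas Col9a3 and Nedd9 were at 168 and 130.1 CPM against 163 and 130.4 at E11.5. Among the rule genes, Amh was at 682 CPM at D6, 82.9 at E11.5, and 826 at E12.5, whereas Aard was at 418, 1178, and 2175 and Sox9 at 248, 674, and 370. These last genes chose the cells in each library.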

How the data were processed

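The 4 XY libraries, 1 per condition, were grouped by the labels. The authors deposited UMI counts per gene and cell barcode, made with Cell Ranger on mm10 and not normalized, which were checked to be whole numbers. The file headers name version 6.0.0, and the submitters' notes name 3.0.2. For the ESC line the labels give C57BL/6J and the methods a cross with another strain, and a label protocol names female gonads, where the titles give XY. The kit was version 2 for the gonads and version 3 at D6.

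Cells were retained with over 1000 and under 4000 genes and under 12% mitochondrial UMIs at D6, following the methods. The corresponding limits were 2000, 5000, and 8% for E12.5 cells, 500, 5000, and 20% for E11.5 cells, and 1000, 4000, and 10% for E10.5 cells. The deposited D6 matrix held 13965107 UMIs in 2441 barcodes. UMIs were summed over the cells of a group and scaled to CPM by the total. Ratios were computed for genes with at least 50 UMIs over both groups, with exact conditional binomial intervals, and the 9 genes of the rule were left out of counts. Where a group had no UMI, 3 UMIs stood in its place and the ratio was taken as a bound. Doublets were scored with Scrublet in scanpy 1.11.5 at an expected rate of 0.8% per 1000 cells. The top-scoring cells were called up to that rate, and they were kept. Genes named in the text belong to the rule, to the lists, or to the 15 genes per direction (10 for E12.5) with the largest ratios and at least 100 CPM in the higher group, and Y-linked genes were added after their values were seen. The members and the lists were chosen with earlier results of these data known. Gene positions came from GENCODE on GRCm38, in which 99.6% of 31053 identifiers were found, and promoters from RefSeq. The steps were tested on simulated data. Alternatives were thinning, 3 or more markers, a rule without Ptgds and Aard, doublets removed, no limits on cells, TMM scaling in edgeR 4.0.16, no minimum of UMIs, means over cells, other comparison cells, and, chosen after seeing the data, a mean of at least 50 CPM and, for lists, at least 50 UMIs in the marker-free cells alone. Scripts ran in R 4.3.3 and Python 3.11.15 (scipy 1.17.1, numpy 2.4.6, matplotlib 3.10.9, pandas 2.3.3).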

Additional observations from a re-analysis of the deposited data

Results flagged for a closer look

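Nanos3, an RNA-binding protein gene known from germ cells, differed in direction between the D6 library and the gonads. Its log2 ratio of Sertoli-like cells to marker-free cells was 1.02 at D6, from 17 UMIs against 158, while the same contrast gave -1.03 at E11.5 and -1.75 at E12.5. With 1 library per condition this difference was not tested. After thinning to 2000 UMIs per cell the ratio at D6 was -0.79.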

How the results depend on the processing

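The share of cells that met the rule changed with depth and with the number and choice of markers. After thinning, with 3 or more markers, and without Ptgds and Aard, respectively, it was 2.03%, 2.36%, and 2.19% at D6, from 3.15%. The corresponding shares were 18.0%, 18.9%, and 16.9% at E11.5, from 25.0%, and 20.2%, 20.9%, and 21.3% at E12.5, from 24.2%. At E10.5 they were 0.157%, 0, and 0.0521%, from 2.58%. Of the 46 D6 cells that met the rule after thinning, 42 were among the 72 and 4 were not. Against marker-free cells, genes at least 2-fold higher numbered 5960 with no minimum of UMIs and 311 with a mean of at least 50 CPM, from 869, and genes lower numbered 177 with the latter, from 1409. Against E12.5, genes higher at D6 numbered 420 after thinning, 965 with TMM, 7425 with no minimum, and 606 with a mean of at least 50 CPM, from 2066, and genes lower 594, 2067, and 272 (mean of at least 50 CPM), from 892. Against E11.5, genes higher numbered 280, 779, 7223, and 676, from 2132, and genes lower 307, 1741, 926, and 185, from 607. With no minimum, genes of very few UMIs in the smaller group enter the counts. The median log2 ratio of the coelomic epithelium list turned from -1.29 to 0.14 after thinning, and the cause was not tested. Of 115 ratios of genes named in the text, only that of Nanos3 went from at least 2-fold in 1 direction to the other side of 0, at -0.79 after thinning. No paired analysis was possible because each condition had 1 library.

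Counting error limits genes with few UMIs among the 476427 of the Sertoli-like cells, such as Sox8, Gli1, and Vnn1, and spread between cultures or embryos cannot be known from 1 library each. Membership rests on detected markers and so on depth. Kit, strain, culture, and sorting cannot be told apart from the difference between D6 and the gonads.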

Other observations

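Further epithelial and signaling genes differed between the D6 Sertoli-like cells and marker-free cells. The simple-epithelium keratin Krt8 was at 39.9 CPM against 11.7, 3.41-fold higher (1.98 to 5.60), and its partner Krt18 was 2.33-fold higher (1.12 to 4.37), while Krt19 had 2 UMIs in the Sertoli-like cells. Of 9 genes of the coelomic epithelium list with 50 UMIs, these 2 keratins were at least 2-fold higher and 5 genes, Krt19 and Krt7 among them, were at least 2-fold lower, on 1 to 4 UMIs each in the Sertoli-like cells. Over all genes, 8.20% were higher and 13.3% lower. The median log2 ratio of this list, -1.29, turned positive after thinning, as given above. Bmp7, a BMP ligand that reached 50 UMIs only with the 11 of the Sertoli-like cells, was 4.32-fold higher (2.02 to 8.44), whereas Bmp4, which was also a component of the medium, was 3.42-fold lower (1.56 to 9.38). Fgfr1, an FGF receptor, was 4.31-fold lower (2.40 to 8.67). The Wnt feedback gene Znrf3 was 2.83-fold higher (1.62 to 4.66), at 37.8 CPM, while the Wnt antagonist Dkk1 had 1 UMI.

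Scarb1, the receptor for high-density lipoprotein, was the only steroidogenic gene of 8 that was at least 2-fold higher, at 3.14-fold (2.06 to 4.64). This count is near the 8.20% of all genes that were higher. The rule had also removed cells with Star and Cyp11a1 from the Sertoli-like cells and not from the marker-free cells. Of the immediate early genes, Fos and Fosb, which answer signals and also tissue dissociation, were 2.07-fold (1.69 to 2.51) and 2.05-fold higher (1.37 to 2.98), and with TMM both fell below 2-fold. Their part in the other ratios was not tested.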
